A study of Mus musculus with 2 samples.

Results

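The genes described here are 32 genes of the interferon response and of MHC class I antigen presentation, chosen by their symbols from the 27998 genes of a single-cell RNA sequencing study of mouse pancreas. All 32 were found in both libraries. They comprise 3 class I chains (H2-K1, H2-D1 and B2m), 5 genes of peptide processing and loading (Tap1, Tap2, Tapbp, Psmb8 and Psmb9), 4 transcription factors (Irf1, Irf7, Irf9 and Stat2), 2 sensors of viral RNA (Ifih1 and Ddx58), 13 antiviral effectors and regulators (Ifit1, Ifit2, Ifit3, Isg15, Oasl2, Ifi35, Ifi44, Rsad2, Usp18, Bst2, Ifitm3, Rtp4 and Xaf1) and 5 interferon-inducible GTPases (Gbp2, Gbp3, Gbp7, Igtp and Irgm1).

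Interferons are secreted proteins that signal through surface receptors and Janus kinases to STAT proteins. Type I interferons act mainly through a complex with STAT2 and IRF9 that binds the interferon-stimulated response element (ISRE), and genes that answer to interferon gamma often carry the gamma-activated site (GAS). Class I molecules, which both kinds of interferon raise, are present on nearly all nucleated cells and show peptides made by the proteasome to CD8 T cells; whether pancreatic tumour stroma carries them is therefore of interest to immunology.

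Both libraries came from Rosa-mTmG;Fabp4-Cre mice, in which a Cre driven by the Fabp4 promoter switches cells and their descendants to membrane GFP. The tumour library (cell type label CAF, cancer-associated fibroblast) held GFP-positive, PDPN-positive cells of tumours that grew for 21 days from FC1245 pancreatic cancer cells implanted orthotopically at 8 weeks of age. The normal library (cell type label PSC, pancreatic stellate cell) held GFP-positive cells from the pancreas of mice of 6 to 9 weeks. With 1 library per group and different enzymes and sort gates, the group, the digestion and the gate cannot be told apart. Age also differed between the libraries, as did the mix of sexes by the Xist and Y-linked RNA described below. Neither can be told apart from the group. The number of mice per library is not given in the sources used here, so all intervals below are 95% intervals of counting error only and no p-value is given.

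The tumour library had 2942 barcodes and 33285044 unique molecular identifiers (UMIs, 1 per captured RNA molecule), and the normal library 5437 barcodes and 36675424 UMIs. After filters, 2520 tumour and 4515 normal cells remained, of which 2 in each library carried a barcode also kept in the other. Clusters were named by marker genes, and fibroblast-like cells made up 2223 (88.2%) of the tumour and 1481 (32.8%) of the normal cells, with a median of 10443 UMIs per tumour and 9018 per normal cell. The rest of the normal library was mainly macrophage-like or monocyte-like (1394 cells) and endothelial-like (1350 cells), so the label stellate cell did not cover most of it. The 12 fibroblast markers summed to 55596 CPM (defined below) in tumour and 54163 CPM in normal fibroblast-like cells with none at 0, and these cells are called fibroblast-like here. Levels are raw UMIs summed over the cells of a class and scaled to 1000000 (CPM). A gene was called higher or lower if its fold was at least 2, the interval of the fold excluded 1 and the level was at least 50 CPM in either sum.

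The promoters of the members carried the interferon elements often. The 7 shown all hold a match and belong to genes described below, so they do not stand for the members without a match. Each line gives 170 bases before the annotated start, 5′ to 3′ on the gene's strand, from the RefSeq promoter table of build GRCm38.p6, with matches to the ISRE core (TTTC, any 2 bases, TTTC) or to the GAS core (TTC, any 3 bases, GAA), on either strand, in capitals; overlapping matches run together.
B2m, chr2:122147517-122147686, plus strand: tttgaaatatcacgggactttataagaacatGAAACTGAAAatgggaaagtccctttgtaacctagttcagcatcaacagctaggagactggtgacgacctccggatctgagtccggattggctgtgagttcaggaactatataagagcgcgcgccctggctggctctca
Irf1, chr11:53769844-53770013, plus strand: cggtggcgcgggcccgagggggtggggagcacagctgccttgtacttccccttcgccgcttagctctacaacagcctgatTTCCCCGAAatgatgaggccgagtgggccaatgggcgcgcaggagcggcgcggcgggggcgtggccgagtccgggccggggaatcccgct
Ifit1, chr19:34640719-34640888, plus strand: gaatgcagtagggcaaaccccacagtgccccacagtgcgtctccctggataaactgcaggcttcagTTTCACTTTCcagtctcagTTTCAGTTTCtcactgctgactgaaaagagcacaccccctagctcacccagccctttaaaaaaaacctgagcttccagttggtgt
Ifit3, chr19:34583359-34583528, plus strand: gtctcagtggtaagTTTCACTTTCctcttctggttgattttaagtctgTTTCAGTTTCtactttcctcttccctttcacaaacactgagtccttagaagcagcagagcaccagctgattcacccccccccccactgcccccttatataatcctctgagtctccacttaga
Isg15, chr4:156200819-156200988, minus strand: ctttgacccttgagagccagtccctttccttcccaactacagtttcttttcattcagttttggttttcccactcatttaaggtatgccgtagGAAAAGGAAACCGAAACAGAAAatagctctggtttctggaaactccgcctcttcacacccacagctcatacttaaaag
Gbp7, chr3:142530166-142530335, plus strand: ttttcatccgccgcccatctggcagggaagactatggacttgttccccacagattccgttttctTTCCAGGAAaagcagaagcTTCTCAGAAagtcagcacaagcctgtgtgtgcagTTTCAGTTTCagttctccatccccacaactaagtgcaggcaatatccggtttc
Irgm1, chr11:48871421-48871590, minus strand: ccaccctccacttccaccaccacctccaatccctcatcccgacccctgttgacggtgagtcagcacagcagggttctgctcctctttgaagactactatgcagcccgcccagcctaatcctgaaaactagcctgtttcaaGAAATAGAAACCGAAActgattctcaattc
B2m had 1 ISRE match, Ifit1 and Ifit3 had 2 each, and Isg15 had 3 that overlap into a single run. Irgm1 had 2 overlapping ISRE matches, Gbp7 had 2 GAS matches and 1 ISRE match, and Irf1 had a GAS match alone in the first of its 2 annotated promoters. Of the 29 members in the table (Tap2, Usp18 and Rtp4 were the others), 15 (51.7%) held an ISRE match within 250 bases before and 50 after the start, against 3.99% of the 27025 genes in the table. A GAS match was found in 8 members (27.6%), against 9.55% of all genes, and either motif in 19 members (65.5%), against 12.9%. With longer motifs (GAAA, any 2 bases, GAAACT for the ISRE and TTCC, any base, GGAA for the GAS), 10 members (34.5%) had either, against 1.64% of all genes. The windows of H2-K1, H2-D1, Tap1, Tapbp, Psmb9, Irf7, Irf9, Oasl2, Ifi44 and Xaf1 held no match to the short motifs. A match of letters is a description of the window and not evidence of binding.

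Several members lie side by side in the genome (GENCODE vM21, build GRCm38). Tap1 and Psmb9, on chromosome 17, start 211 bases apart and are read in opposite directions, and with Tap2 and Psmb8 they span 34.3 kb of the MHC. H2-K1, H2-D1 and Tapbp are on the same chromosome, which holds 7 of the 32 members. Gbp2, Gbp3 and Gbp7 span 108 kb of chromosome 3, and Ifit1, Ifit2 and Ifit3 span 99.3 kb of chromosome 19. H2-K1 and H2-D1 are close copies of each other and of other class I genes, and the Ifit and Gbp genes are families of like sequence. How reads that match several copies were counted is not given in the sources used here, so the levels of single copies are uncertain to that extent.

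In tumour fibroblast-like cells the class I chains were at levels close to those of normal fibroblast-like cells, and most interferon-induced members were somewhat lower. Of the 32 members, 10 reached 50 CPM in either sum, none was called higher and 1 was called lower, Ifih1. Among all 3640 genes at 50 CPM or more, 9.42% were called higher and 10.9% lower, so a single call among 10 members is near the background. The tumour value was above the normal one in 8 members and below it in 24. For the 25 members that reached 20 CPM in the tumour or the normal sum, the median log2 fold was -0.63, and over all 6815 such genes it was -0.25. With the median gene set to no change, the members' median was -0.37.

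H2-K1 and H2-D1 encode the classical class I heavy chains and B2m the light chain they share. H2-K1 was at 494 CPM in tumour and 358 CPM in normal fibroblast-like cells, a 1.38-fold difference (1.34 to 1.42). H2-D1 was at 476 CPM in tumour and 542 CPM in normal cells (0.878-fold, 0.854 to 0.903). B2m was at 1023 CPM in tumour and 930 CPM in normal cells (1.10-fold, 1.08 to 1.12). These differences were all well under 2-fold, and under TMM scaling H2-D1 moved from below 0 to 0.13 on the log2 scale. After each cell was thinned to 5000 UMIs, which left out 364 tumour and 144 normal cells below that depth, at least 1 H2-K1 UMI was seen in 81.0% of tumour and 78.5% of normal cells (unthinned, 92.4% of tumour and 89.9% of normal cells). For B2m the thinned shares were 95.9% of tumour and 98.0% of normal cells (unthinned, 98.7% in both).

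All 5 genes of peptide processing and loading had a log2 fold below 0, and none was called. Tap1 and Tap2, both subunits of the transporter that moves peptides into the endoplasmic reticulum, were at 13.9 and 27.0 CPM in tumour cells, against 18.2 and 47.7 CPM in normal cells. Psmb8 and Psmb9, catalytic subunits of the immunoproteasome, were at 56.0 and 13.4 CPM in tumour cells, against 66.2 and 25.1 CPM in normal cells. Tapbp, or tapasin, which edits the peptide cargo of class I chains, was at 139 CPM in tumour and 148 CPM in normal cells. Tapbp and Psmb8 were above 0 under TMM scaling (log2 0.23 and 0.08), whereas Tap2 and Psmb9 were below 0 under all 19 alternative settings.

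The transcription factors did not move together. Irf1, an early interferon target that drives class I and immunoproteasome genes, was at 97.1 CPM in tumour and 51.6 CPM in normal cells (1.88-fold, 1.73 to 2.05), just short of the 2-fold rule. Its thinned share was 31.1% of tumour and 17.9% of normal cells. It passed the rule under 9 of 19 alternative settings, including both other scalings (log2 1.23 with TMM scaling and 1.16 with the median gene at no change). Irf7, which amplifies type I interferon production, was at 19.1 CPM in tumour and 18.4 CPM in normal cells. Irf9 and Stat2, partners in the ISRE-binding complex, were at 19.1 and 16.0 CPM in tumour cells and at 36.4 and 27.6 CPM in normal cells.

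Immediate early genes, which cells switch on within minutes of a stimulus such as tissue digestion, were read beside Irf1. A sum of 10 of them, listed after values had been seen, was 19958 CPM in tumour and 11989 CPM in normal fibroblast-like cells. Of the fibroblast-like clusters described below, the Irf1 level was highest in the normal Ptx3 cluster (262 CPM, immediate early sum 23109 CPM) and the tumour Apod cluster (207 CPM, sum 25680 CPM). It was lower in the tumour Thbs4 cluster at a similar sum (102 CPM, sum 23755 CPM). In normal endothelial-like cells Irf1 was at 194 CPM at an immediate early sum of 9930 CPM. The part of these genes in the Irf1 result was not tested.

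Both RNA sensors had lower values in the tumour cells. Ifih1, which encodes MDA5, was at 23.2 CPM in tumour and 51.7 CPM in normal cells, a fold of 0.448 (0.403 to 0.498), and was the 1 member called lower. Its level in normal cells lay just above the minimum of 50 CPM, and it was not called under TMM scaling or without the tumour cluster led by Cthrc1 (log2 -0.79, against -1.16 with it). Ddx58, which encodes RIG-I, was at 27.0 CPM in tumour and 41.8 CPM in normal cells.

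Among the 13 antiviral effectors and regulators, 9 had a log2 fold below 0 and 4 above, and none was called. The Ifit genes, whose products bind viral RNA, were the lowest. Ifit1 was at 21.1 CPM in tumour and 42.5 CPM in normal cells (0.497-fold, 0.443 to 0.557). Ifit2 was at 6.57 CPM in tumour and 28.3 CPM in normal cells (0.233-fold, 0.195 to 0.277). Ifit3 was at 15.5 CPM in tumour and 31.7 CPM in normal cells (0.489-fold, 0.428 to 0.559). All 3 stayed under 50 CPM in both sums and so could not be called, and with no minimum level they were called lower along with Ifih1. The share of all genes called lower with no minimum level is not given here. The thinned share of cells with an Ifit2 UMI was 3.71% in tumour and 11.4% in normal cells.

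Isg15, a ubiquitin-like protein that is coupled to other proteins, went the other way, with 102 CPM in tumour and 61.3 CPM in normal cells (1.67-fold, 1.54 to 1.80) and thinned shares of 21.0% of tumour and 14.1% of normal cells. In normal B-like cells the thinned share for Isg15 was 3.28% (61 cells, median of all 70 B-like cells 9737 UMIs). Ifi44 had 179 UMIs in tumour and 40 in normal cells, or 6.22 CPM in tumour and 2.82 CPM in normal cells (2.21-fold, 1.56 to 3.19). Its log2 fold of 1.14 was 0.14 against the Xist-positive and 2.14 against the Y-positive normal cells, a split described below. Ifitm3, a membrane protein that blocks viral entry and is high without interferon in many cells, was by far the most abundant antiviral member at 1947 CPM in tumour and 1927 CPM in normal cells (1.01-fold, 0.996 to 1.03). Bst2, or tetherin, which holds budding virus at the cell surface, was at 157 CPM in tumour and 174 CPM in normal cells. Oasl2, of the oligoadenylate synthetase family, was at 33.1 CPM in tumour and 32.9 CPM in normal cells. The log2 folds of Ifitm3, Bst2 and Oasl2 were all close to 0 and changed sign between settings.

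The other antiviral members were at low levels. Xaf1, a partner of an apoptosis inhibitor, was at 23.4 CPM in tumour and 45.4 CPM in normal cells, and Ifi35 was at 21.1 CPM in tumour and 38.6 CPM in normal cells. Rtp4, a receptor-transporting protein, was at 20.2 CPM in tumour and 30.9 CPM in normal cells. Rsad2, or viperin, and Usp18, a protease that removes ISG15 and dampens type I receptor signalling, were at 6.61 and 7.02 CPM in tumour cells and at 9.02 and 7.89 CPM in normal cells. All 5 GTPases, which act on membranes around intracellular pathogens and are classical targets of interferon gamma, had log2 folds below 0, between -0.97 (Irgm1) and -0.47 (Igtp), with levels of 11.2 to 29.0 CPM in tumour and 15.5 to 49.3 CPM in normal cells.

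**Figure D1:**
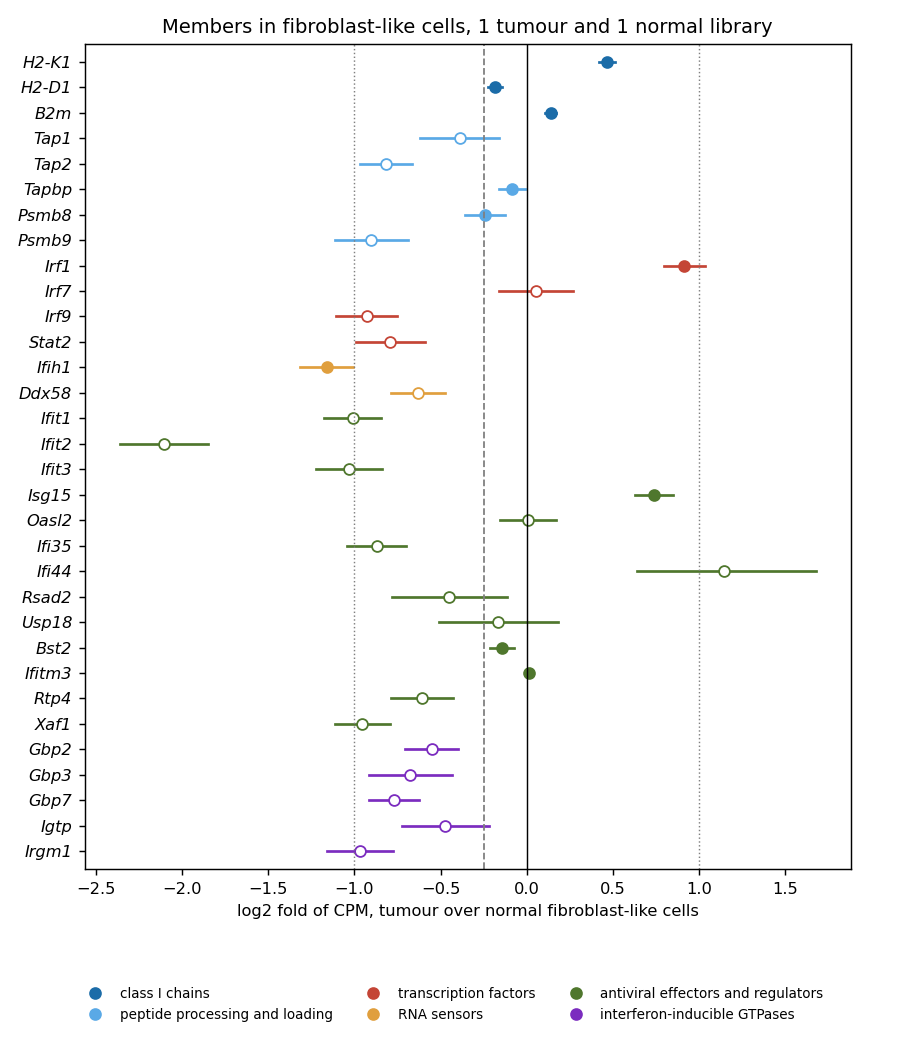
The log2 fold of CPM, tumour over normal fibroblast-like cells, is plotted on the horizontal axis for each member, coloured by role, with 95% intervals of counting error; filled points reached 50 CPM in either sum, the dashed line is the median of all genes (-0.25) and dotted lines mark 2-fold. Ifih1 is the filled point beyond 2-fold on the low side, at -1.16, and Irf1 the filled point farthest on the high side, at 0.91.

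Sums of markers of other cells differed between the fibroblast-like sums in both directions. All 10 endothelial markers were present in both sums and amounted to 51.1 CPM in tumour and 177 CPM in normal cells. The 11 macrophage markers amounted to 17.0 CPM in tumour cells, with 1 of them at 0, and 104 CPM in normal cells, with none at 0. The 8 acinar markers amounted to 60.9 CPM in tumour and 496 CPM in normal cells, and the 6 B-cell markers to 345 CPM in tumour and 1194 CPM in normal cells, most of it Ebf1. Higher in the tumour sum were the 8 ductal or epithelial markers (1101 CPM in tumour and 36.0 CPM in normal cells, with Spp1 alone at 1011 CPM in tumour), the 7 lymphatic endothelial markers (431 CPM in tumour and 152 CPM in normal cells, mostly Pdpn), the 6 Schwann or neural markers (175 CPM in tumour and 28.2 CPM in normal cells) and the 8 mesothelial markers (154 CPM in tumour and 95.6 CPM in normal cells, mostly Wt1). The part of the ductal, lymphatic, neural, mesothelial, acinar and B-cell markers in the result was not tested. In the 1289 tumour and 294 normal fibroblast-like cells with no UMI of any macrophage or endothelial marker, the members' median log2 fold was -0.24, beside -0.22 for all genes, Irf1 and Isg15 were called higher and Ifih1 was no longer called. The share of all genes called in this subset and the depth of its cells are not given here. In cells with at least 1 Pdpn UMI, the gene behind the tumour sort gate, the members' median was -0.63 (1829 tumour and 913 normal cells), and that of all genes is not given here.

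Within the tumour library all 32 members lay on one side in 2 of the 5 fibroblast-like clusters and on both sides in the others, with few calls. The cluster led by Ptx3 (544 cells), in which the 8 inflammatory fibroblast markers summed to 11652 CPM, against 4310 CPM in the Cthrc1 cluster, had all 32 members above the other tumour fibroblast-like cells, with a median log2 fold of 0.67 (all genes, -0.07). Of its 9 members at 50 CPM or more, H2-K1 (857 CPM, against 397 CPM in the others; 2.16-fold) and H2-D1 (815 CPM, against 386 CPM; 2.11-fold) were called higher, where 5.70% of all genes were and 5.41% were called lower. B2m was at 1592 CPM there, against 872 CPM in the others. Among members below 50 CPM, Ifit1 was at 49.1 CPM, against 13.7 CPM (3.59-fold, 3.05 to 4.22), and Irf7 at 34.5 CPM (2.31-fold, 1.93 to 2.75).

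The cluster led by Cthrc1 (385 cells), in which the 8 contractile myofibroblast-type markers summed to 8504 CPM, against 1127 CPM in the Ptx3 cluster, had all 32 members below the other tumour fibroblast-like cells, with a median log2 fold of -1.01 (all genes, -0.00). H2-D1 (284 CPM, against 582 CPM), Irf1 (50.2 CPM, against 123 CPM) and Bst2 (94.3 CPM, against 192 CPM) were called lower, of 9 members at 50 CPM or more, where 7.75% of all genes were called lower and 5.52% higher. Rsad2 had 13 UMIs, or 1.27 CPM, against 9.56 CPM (0.133-fold, 0.0692 to 0.233), and Rtp4 was at 5.46 CPM, against 28.4 CPM (0.192-fold, 0.143 to 0.253). These cells were the deepest, with a median of 26389 UMIs. After thinning to 5000 UMIs, H2-D1 was still seen in fewer of them, 59.8%, than of the Ptx3 cluster, 94.0%, the Apod cluster, 89.6%, or the Thbs4 cluster, 81.5%.

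The remaining tumour clusters lay between. In the cluster led by Apod (487 cells) Irf1 was called higher (207 CPM; 2.59-fold, 2.38 to 2.81) and the members' median was 0.01, with 5.74% of all genes called higher and 5.53% lower. In the cluster led by Thbs4 (776 cells) no member was called and the median was 0.13, with 2.39% of all genes called higher and 4.12% lower. A cluster of 25 tumour cells led by G0s2, which otherwise held 1066 normal cells, had 6 members called higher, each on 9 to 14 UMIs apart from Ifitm3, and Irf1 called lower on 8 UMIs, against 13.8% of all genes called higher and 8.59% lower.

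**Figure D2:**
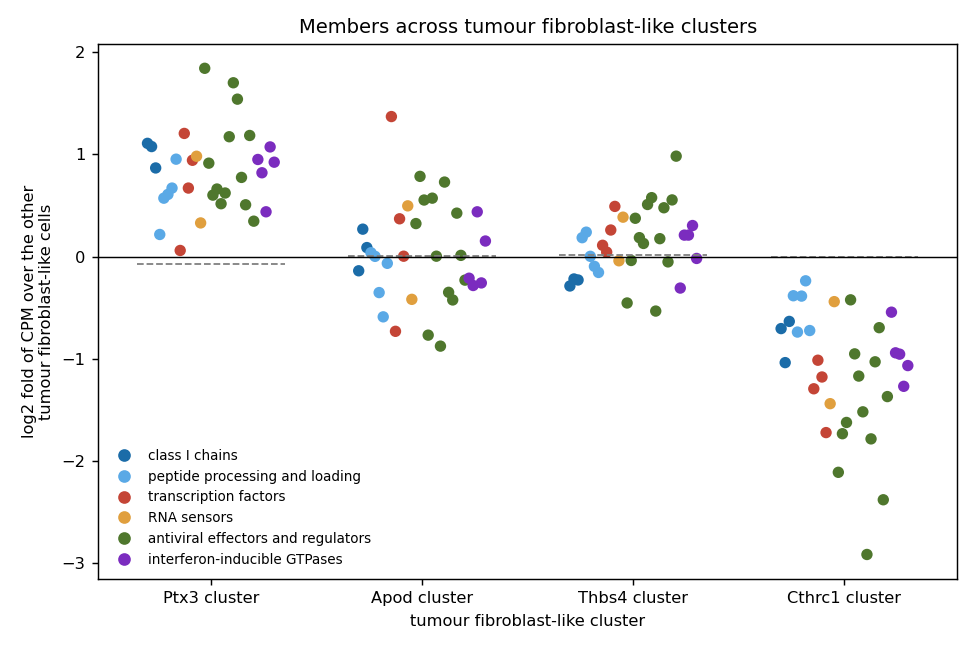
Each point is 1 member in 1 tumour fibroblast-like cluster, with the log2 fold of its CPM over the other tumour fibroblast-like cells on the vertical axis and colours by role. All 32 points lie above 0 in the Ptx3 cluster and below 0 in the Cthrc1 cluster, while the Apod and Thbs4 clusters straddle 0.

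Because the members were among the genes that could shape the clusters, the cells were also clustered without them and without 4 further lists of interferon, sensing and antigen presentation genes. At the same resolution the Ptx3 and Apod cells joined in 1 cluster of 1076 cells, with all 32 members above the other tumour fibroblast-like cells (median 0.70) and 2 called higher, where 6.98% of all genes were called higher and 5.21% lower. The cluster high in Cthrc1 (394 cells) had all 32 below (median -0.86) and 2 called lower, where 7.70% of all genes were called lower and 5.66% higher. The cluster high in Thbs4 (717 cells) had none called, where 2.43% of all genes were called higher and 4.15% lower, and a cluster of 27 cells high in Apod and G0s2 had 2 called higher and 1 lower, where 14.1% were called higher and 8.76% lower. At a resolution of 1, chosen after the first result was seen, the cluster high in Ptx3 (495 cells) had 31 of 32 members above the others (median 0.76) and H2-K1, H2-D1 and Ifit1 called higher, where 5.41% of all genes were. A second cluster (412 cells), made of Thbs4 and Ptx3 cells of the first clustering, also had 31 of 32 above, at a smaller median of 0.24 and with none of 9 called, where 1.73% of all genes were called higher and 4.07% lower. The cluster high in Cthrc1 (377 cells) had all 32 below (median -0.94) and Irf1 and Bst2 called lower, where 7.74% of all genes were. A small cluster of 30 tumour cells, led by Akr1cl, had the lowest median, -1.04, with 22 of 32 members below the others. These cells were not among the tumour cells named fibroblast-like in the first clustering, so their class changed with the setting. The pericyte-like or smooth muscle-like cluster held 32 tumour cells in the first clustering and 2 in this one. Whether those are the same cells was not traced. The Akr1cl cluster also held 7 normal cells and had a median depth of 4715 UMIs. Of its 9 members at 50 CPM or more, 7 were called lower (H2-K1, H2-D1, B2m, Tapbp, Psmb8, Isg15 and Ifitm3) and Bst2 was called higher, where 18.2% of all genes were called lower and 15% higher; the H2-K1 call rests on 13 UMIs. The clusters high in Apod (482 cells) and in Thbs4 (424 cells) had 16 and 21 of 32 members below, with Irf1 called higher in the Apod cells alone, where 5.90% of all genes were, against 3.13% in the Thbs4 cells. A cluster of 23 tumour cells high in G0s2 had Ifih1 and Rtp4 called higher on 14 and 7 UMIs, where 15.7% of all genes were. Cells of 1 library are not replicates, and these values describe that library.

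In the normal library 1 of 13 members at 50 CPM or more was called higher in the cluster led by Sema3c (375 cells). It was Ifit1 (69.9 CPM, against 27.9 CPM, 2.51-fold, 2.13 to 2.96), where 7.36% of all genes were called higher and 9.32% lower. The members' median there was -0.23 (all genes, -0.19), with 22 of 32 below 0. In the cluster led by G0s2 (1066 cells) 1 of 12 was called lower, again Ifit1 (27.0 CPM, against 67.4 CPM), where 8.18% were called lower and 9.37% higher. The median there was 0.12 (all genes, 0.21), with 19 of 32 above 0. A single call is near the background in both clusters. The 36 normal cells that fell in the Ptx3 cluster stood apart from the other normal fibroblast-like cells in their markers. Their 5 adipocyte markers summed to 1025 CPM (1 at 0, Adipoq at 406 CPM), against 16.3 CPM in the tumour Ptx3 cluster, 1.03 CPM in the normal G0s2 cluster and 0 in the normal Sema3c cluster. Wt1 was at 527 CPM and the 10 pericyte or smooth muscle markers at 430 CPM in them, and the fibroblast markers at 27253 CPM, below the 54163 CPM of all normal fibroblast-like cells. The part of these markers in the values that follow was not tested. Of the 16 members at 50 CPM or more, 7 were called higher in these cells than in the other normal fibroblast-like cells, where 10.5% of all genes were called higher and 15.2% lower. H2-K1 was at 1017 CPM there, against 335 CPM, H2-D1 at 1236 CPM, against 518 CPM, and Irf1 at 262 CPM, against 44.4 CPM. Psmb8, Psmb9, Gbp2 and Irgm1 were the others, at 2.10-fold to 3.42-fold. With the interferon and antigen presentation genes left out and a resolution of 1, the cluster high in Ptx3 held 2 normal cells, so these values are not a second reading of the tumour Ptx3 cluster.

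Between classes of the normal library, endothelial-like cells were compared with fibroblast-like cells. Of the 32 members, 28 were called higher in normal endothelial-like than in normal fibroblast-like cells and none lower, where 21.1% of all 4351 genes at 50 CPM or more were called higher and 17.6% lower. All 32 members were above 0, and the median log2 fold was 2.03, beside 0.14 for all genes. Both classes came from the same library, digestion and sort. The calls were 28 higher and none lower also when the members and related lists were left out of the clustering, where 21.2% of all genes were called higher and 17.7% lower.

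The antiviral members Ifi44 and Rsad2 had the highest folds of the 32. Ifi44 was at 148 CPM in endothelial-like and 2.82 CPM in fibroblast-like cells, a 52.5-fold difference (38.3 to 74.1), and Rsad2 was at 236 CPM in endothelial-like and 9.02 CPM in fibroblast-like cells (26.1-fold, 21.8 to 31.6). After thinning to 5000 UMIs, Rsad2 was seen in 43.3% of endothelial-like and 2.62% of fibroblast-like cells (unthinned, 40.4% of endothelial-like and 3.71% of fibroblast-like cells); 944 of the 1350 endothelial-like cells were too shallow for this, their median being 3978 UMIs. At 3000 UMIs, which 940 of them reached, the shares were 36.7% of endothelial-like and 1.94% of fibroblast-like cells. In normal B-like cells Rsad2 had no UMI.

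Among the GTPases, whose folds ran down to 3.58 (Gbp2), Gbp7 was at 419 CPM in endothelial-like and 49.3 CPM in fibroblast-like cells (8.50-fold, 7.81 to 9.26) and Igtp at 123 CPM in endothelial-like and 15.5 CPM in fibroblast-like cells (7.95-fold, 6.83 to 9.29). Psmb9 was at 202 CPM in endothelial-like and 25.1 CPM in fibroblast-like cells (8.06-fold, 7.16 to 9.11). H2-K1 was at 1674 CPM in endothelial-like and 358 CPM in fibroblast-like cells (4.68-fold, 4.52 to 4.84), and H2-D1 at 2342 CPM in endothelial-like and 542 CPM in fibroblast-like cells (4.32-fold, 4.20 to 4.45). The differences were smallest for the members that were not called: Ifitm3 at 2429 CPM in endothelial-like and 1927 CPM in fibroblast-like cells (1.26-fold), Ifih1 at 87.3 CPM in endothelial-like and 51.7 CPM in fibroblast-like cells (1.69-fold) and Ifit1 (1.88-fold, 42.5 CPM in fibroblast-like cells). Usp18, at 34.9 CPM in endothelial-like and 7.89 CPM in fibroblast-like cells (4.42-fold), was below the minimum level in both.

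The receptors of the pathway, listed separately, were also read in these cells. Ifnar1 and Ifnar2, the chains of the type I receptor, were at 76.0 and 183 CPM in endothelial-like and 42.0 and 95.1 CPM in fibroblast-like cells. Ifngr1 and Ifngr2, the chains of the gamma receptor, were at 305 and 105 CPM in endothelial-like and 287 and 58.6 CPM in fibroblast-like cells.

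With the interferon genes left out of the clustering, 299 of the endothelial-like cells formed an arterial part. They had Gja4 and Sema3g at 557 and 675 CPM, against 56.0 and 56.6 CPM in the other 1052. They were also shallower, with a median of 2368 UMIs, against 4286 in the others. No member was called higher in them. Ifi44 and Rsad2 were called lower, at 74.4 and 121 CPM, against 161 and 256 CPM, where 3.72% of all genes were called higher and 3.49% lower. The members' median there was -0.21.

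**Figure D3:**
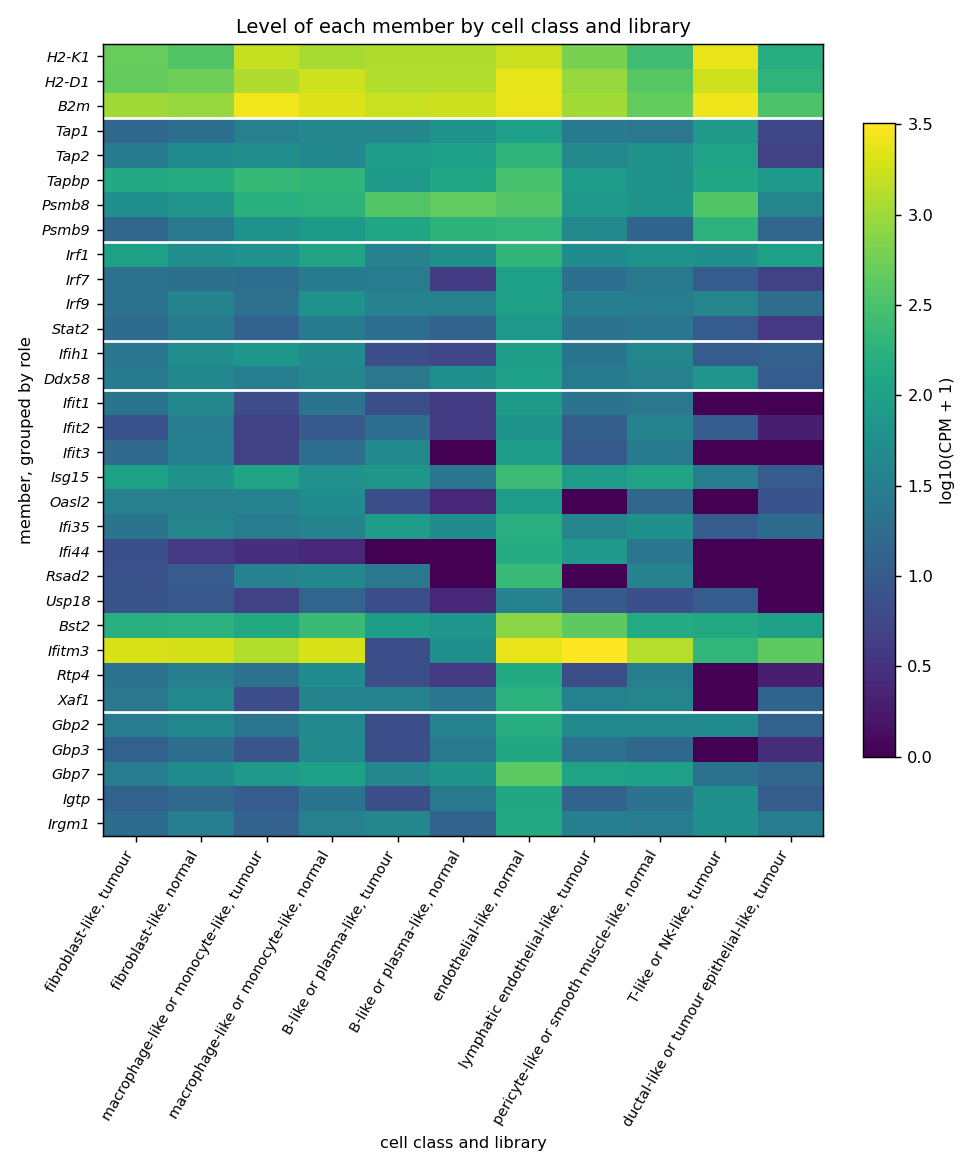
The heatmap gives log10 of CPM + 1 for each member (rows, grouped by role) in each cell class and library (columns). Tumour is left of normal for the classes shown in both libraries, and classes shown in 1 library follow. The normal endothelial-like column has the highest level of the normal columns for 31 of 32 members, and the 3 class I chains and Ifitm3 are high in nearly all columns.

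Across the 5 named classes of the normal library, endothelial-like cells had the highest level of 31 of the 32 members. The exception was Psmb8, at 465 CPM in B-like and 371 CPM in endothelial-like cells. Macrophage-like or monocyte-like cells had high class I levels (H2-K1 1102 CPM, H2-D1 1776 CPM and B2m 2086 CPM) but lower levels of antiviral members such as Ifi44 (1.49 CPM) and Rsad2 (42.0 CPM). B-like cells had H2-K1 at 1230 CPM and Psmb9 at 186 CPM, while Ifi44, Ifit3 and Rsad2 had no UMI there, under a floor of 4.50 CPM. Pericyte-like or smooth muscle-like cells had the lowest class I levels, with H2-K1 at 272 CPM, H2-D1 at 399 CPM and B2m at 473 CPM.

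Tumour and normal cells could be set side by side in 2 further classes. In the monocyte cluster led by Ccr2 (49 tumour and 364 normal cells) no member was called higher and Irf9 was called lower, at 18.6 CPM on 9 UMIs in tumour and 56.0 CPM in normal cells (0.331-fold, 0.149 to 0.645). The background was 16.5% of genes called higher and 11.6% lower. The top genes of this cluster included Ear2 and Cx3cr1. Without the interferon genes and at a resolution of 1, a cluster with Ear2 and Itgax held 48 tumour and 133 normal cells and stayed unnamed. A macrophage-like cluster led by Cx3cr1 held 1 tumour and 244 normal cells. The tumour and normal cells compared here may therefore differ in their mix, and its part in the folds was not tested. H2-K1 was at 1575 CPM in tumour and 918 CPM in normal monocytes (1.72-fold, 1.58 to 1.86), and H2-D1 at 1203 CPM in tumour and 1617 CPM in normal ones (0.744-fold, 0.682 to 0.811), so that H2-K1 was the higher of both copies in the tumour library and H2-D1 in the normal library, in the monocytes as in the fibroblast-like cells.

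In B-like cells (52 tumour and 70 normal cells) Isg15 was called higher, at 70.3 CPM on 12 UMIs in tumour and 22.5 CPM on 15 UMIs in normal cells (3.12-fold, 1.33 to 7.15), where 9.73% of all genes were called higher. Ifitm3 was called lower, with 1 UMI in tumour and 37 UMIs in normal cells (0.106-fold, 0.0026 to 0.625), where 7.47% of all genes were called lower. H2-K1 was at 1235 CPM in tumour and 1230 CPM in normal B-like cells. The tumour B-like cells were shallow, with a median of 2616 UMIs, against 9737 in the normal ones.

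To see whether the antiviral response was spread over all cells or held by a few, the UMIs of 11 antiviral members (all but Ifitm3 and Bst2) were summed per cell after thinning to 5000 UMIs. The mean sum was 1.47 UMIs in tumour and 1.64 UMIs in normal fibroblast-like cells, and 52.6% of tumour and 42.7% of normal cells had none. A sum of at least 10 UMIs was found in 39 of 1859 tumour cells (2.10%, exact binomial interval 1.5 to 2.86) and 38 of 1337 normal cells (2.84%, 2.02 to 3.88), intervals that overlap. These few cells held 30.7% of all such UMIs in the tumour and 31.9% in the normal fibroblast-like cells. The highest sums were 77 UMIs in a tumour and 50 UMIs in a normal cell.

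In endothelial-like cells the sum was spread more evenly, with a mean of 6.86 UMIs, none in 3.94% of cells and at least 10 UMIs in 103 of 406 cells (25.4%, 21.2 to 29.9). In normal macrophage-like or monocyte-like cells 22 of 1151 (1.91%) reached 10 UMIs, with a highest sum of 115 UMIs. Among tumour clusters, 3.69% of Ptx3 cells (2.12 to 5.92) and 0.787% of Cthrc1 cells (0.163 to 2.28) reached it.

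The 21 members outside the sum were then read in the fibroblast-like cells with at least 10 UMIs and in the others of the same library. The high cells were picked by genes of the same response, and the folds have no interval and no minimum level. No share or median over all genes was taken for these splits, so the counts below have no background beside them. In the tumour library 20 of the 21 were higher in the high cells, 14 of them at least 2-fold, with a median fold of 4.35. Igtp was at 128 CPM in the high cells, against 10.4 CPM in the others (12.3-fold), and Irf7 at 190 CPM, against 16.2 CPM (11.7-fold). Irf1 was the exception, at 76.9 CPM in the high cells, against 124 CPM in the others. In the normal library all 21 were higher, 14 at least 2-fold, with a median of 3.05. The class I chains differed less than the median in both libraries, with H2-K1 at 1.93-fold in tumour and 1.39-fold in normal cells and B2m at 1.56-fold in tumour and 1.28-fold in normal cells. In the endothelial-like cells all 21 were higher, 6 at least 2-fold, with a median of 1.79.

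**Figure D4:**
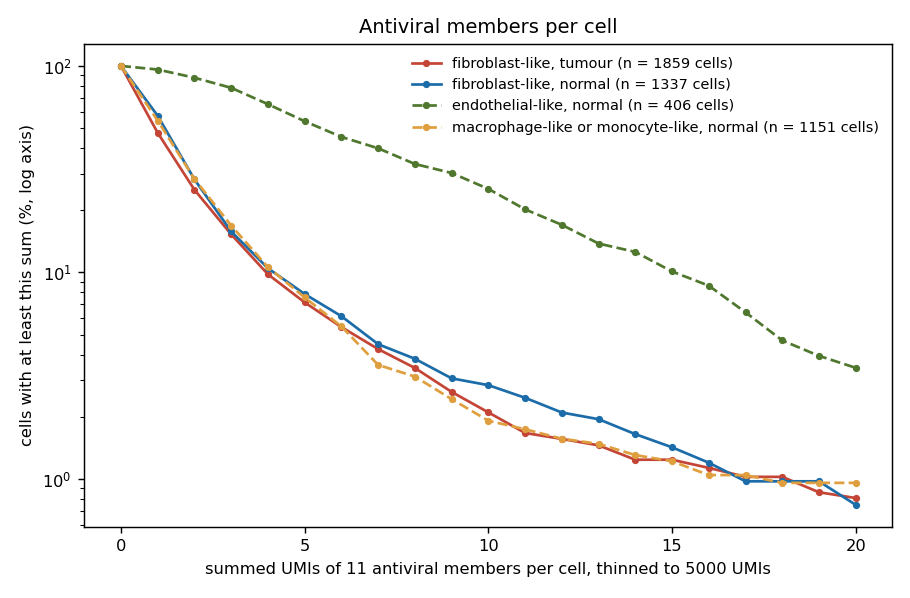
The share of cells (percent, log axis) with at least a given sum of UMIs of the 11 antiviral members is plotted against that sum for classes thinned to 5000 UMIs per cell. The tumour and normal fibroblast-like curves run close together and reach 2.10% (tumour) and 2.84% (normal) at 10 UMIs, below the endothelial-like curve at 25.4%.

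Among the wider lists for fibroblast-like cells, all chosen with earlier results of these data known, the counts of calls are to be read against the 9.42% of all genes called higher and the 10.9% called lower. Of 24 receptors, ligands and signalling genes, 9 reached 50 CPM, 1 was called higher and 1 lower (median log2 fold -0.23). Ptpn2, a phosphatase that switches off JAK and STAT signalling, was at 70.2 CPM in tumour and 27.5 CPM in normal cells (2.56-fold, 2.29 to 2.86). Ifngr1, the ligand-binding chain of the gamma receptor, was at 109 CPM in tumour and 287 CPM in normal cells (0.381-fold, 0.364 to 0.3998). Socs1, another brake on the pathway, was at 94.6 CPM in tumour and 51.2 CPM in normal cells, and Pias1 at 19.4 CPM in tumour and 38.7 CPM in normal cells. Ifnar1 and Ifnar2 were at 35.9 and 95.6 CPM in tumour and 42.0 and 95.1 CPM in normal cells.

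Of 24 other antigen presentation genes, 12 reached 50 CPM and none was called (median -0.10). Among the 17 with at least 20 CPM in either sum, the highest folds were those of the proteasome genes Psma7 (294 CPM in tumour and 238 CPM in normal cells) and Psme3 (30.1 CPM in tumour and 24.7 CPM in normal cells), and the lowest those of H2-M3, a non-classical class I chain (18.8 CPM in tumour and 37.0 CPM in normal cells), and H2-Ke6 (15.02 CPM in tumour and 24.7 CPM in normal cells), an enzyme gene that lies in the MHC. Below that level H2-Q7, another class I chain, was at 16.2 CPM in tumour and 5.36 CPM in normal cells (3.03-fold, 2.37 to 3.92), a value chosen after it was seen. Of 16 sensing genes only Ifi204, also on the list of induced genes below, reached 50 CPM, at 115 CPM in tumour and 223 CPM in normal cells, and was not called. Tmem173, which encodes STING, was at 44.2 CPM in tumour and 16.3 CPM in normal cells (2.71-fold, 2.35 to 3.13), and Zbp1, a sensor of Z-form nucleic acid, at 22.8 CPM in tumour and 9.79 CPM in normal cells. Traf3, an adaptor, was at 24.5 CPM in tumour and 24.1 CPM in normal cells.

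Of 60 other interferon-induced genes, 19 reached 50 CPM, 1 was called higher and 4 lower (median -0.62). Cxcl10, a chemokine that draws T cells, was at 309 CPM in tumour and 43.7 CPM in normal cells (7.06-fold, 6.51 to 7.68), and its relative Cxcl9 at 22.8 CPM in tumour and 6.62 CPM in normal cells (3.44-fold, 2.77 to 4.31). Those called lower were Ifi27l2a (404 CPM in tumour and 809 CPM in normal cells), Ifi30, a thiol reductase of the endosome (77.1 CPM in tumour and 198 CPM in normal cells), Sp100 (41.5 CPM in tumour and 94.4 CPM in normal cells) and Slfn5 (114 CPM in tumour and 312 CPM in normal cells). Parp14 and Znfx1, with the lowest folds among the 37 genes at 20 CPM or more in either sum, were at 16.8 and 10.5 CPM in tumour cells and at 49.0 and 29.0 CPM in normal cells.

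Of the interferon genes, Ifnb1, Ifng, Ifna4 and Ifnk were read, and each had few or no UMIs. Ifnk had 1 UMI in each library. Ifnb1 had 1 UMI in the tumour library, in a macrophage-like cell, and 11 UMIs in 9 macrophage-like cells of the normal library. Ifng had 6 UMIs in 4 T-like or NK-like cells of the tumour library and 1 UMI in the normal library. Ifna4 was found in 0 of 2520 tumour cells and 0 of 4515 normal cells, which allows shares of cells with a UMI of up to 0.119% in the tumour and 0.0664% in the normal library. Cells outside the sort gates were not profiled.

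The normal library held cells with RNA of Xist, which is made from the inactive X chromosome of female cells, and cells with RNA of Y-linked genes. Of its 4515 cells, 1520 had Xist and no Y-linked UMI (Xist-positive), 1926 the reverse (Y-positive), 53 both and 1016 neither. In the tumour library 2322 of 2520 cells were Xist-positive and none had a Y-linked UMI. The normal cells could thus be split within 1 library, digestion and sort, although sex and mouse cannot be told apart in this split.

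In endothelial-like cells all 32 members were higher in the 357 Xist-positive than in the 491 Y-positive cells, with a median log2 fold of 0.67, beside -0.02 for all genes. Only 0.594% of genes were called higher and 0.135% lower, and 4 members were among those called higher. Igtp was at 264 CPM in Xist-positive and 56.9 CPM in Y-positive cells (4.63-fold, 3.82 to 5.65), Tap1 at 161 CPM in Xist-positive and 62.3 CPM in Y-positive cells (2.59-fold, 2.11 to 3.19), Gbp7 at 677 CPM in Xist-positive and 293 CPM in Y-positive cells (2.31-fold, 2.10 to 2.54) and Gbp3 at 194 CPM in Xist-positive and 87.7 CPM in Y-positive cells (2.21-fold, 1.85 to 2.65). H2-K1 was at 2473 CPM in Xist-positive and 1274 CPM in Y-positive cells (1.94-fold, 1.85 to 2.03), while Rsad2 (263 CPM in Xist-positive and 223 CPM in Y-positive cells; 1.18-fold) and Ifi44 (180 CPM in Xist-positive and 137 CPM in Y-positive cells; 1.32-fold) differed less. In the arterial cells, only 61 Xist-positive and 86 Y-positive, 30 of 32 members were higher (median 0.73). Of these 8 were called higher, where 2.67% of all genes were called higher and 2.18% lower. In the other endothelial-like cells, 296 Xist-positive and 406 Y-positive, all 32 were higher (median 0.66). Of these 4 were called higher, where 0.642% of all genes were called higher and 0.187% lower.

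In fibroblast-like cells 27 of 32 members were higher in the 485 Xist-positive than in the 765 Y-positive cells (median 0.32, all genes 0.05), and none was called, with 0.143% of all genes called higher and 0.688% lower. In the G0s2 cluster of these cells 31 of 32 were higher (median 0.41) and none was called, with 0.222% of all genes called higher and 0.527% lower. In macrophage-like or monocyte-like cells 24 of 32 were higher (median 0.20, all genes 0.02), none was called, with 0.321% of all genes called higher and 0.0964% lower, and H2-K1 was at 1277 CPM in Xist-positive and 943 CPM in Y-positive cells. Set against the Xist-positive normal fibroblast-like cells alone, the tumour cells had a median log2 fold of -0.83, and against the Y-positive ones -0.58. The medians of all genes in these comparisons are not given here. Against all normal fibroblast-like cells the median of all genes was -0.25.

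**Figure D5:**
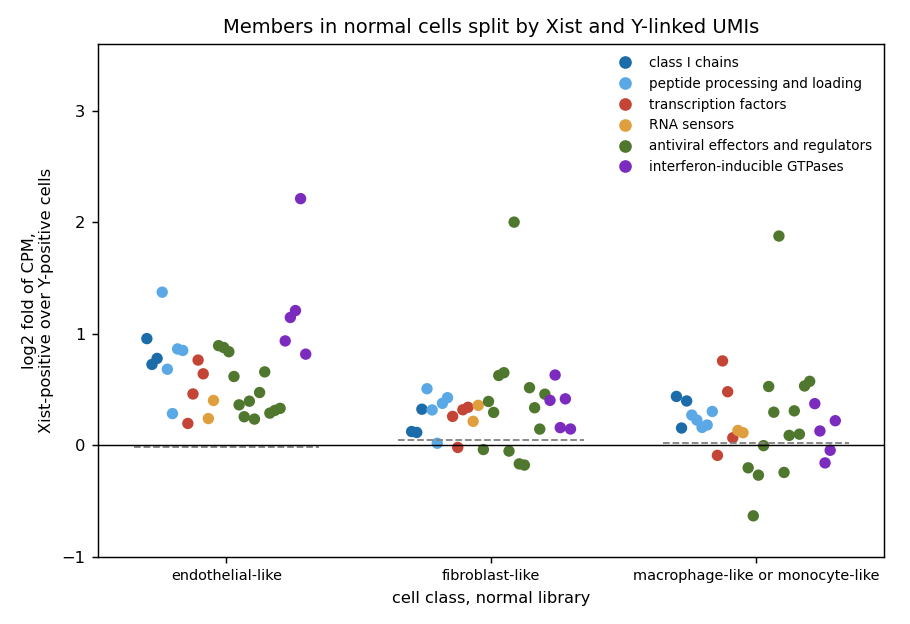
Each point is 1 member in 1 class of the normal library, with the log2 fold of CPM, Xist-positive over Y-positive cells, on the vertical axis and colours by role. All 32 points are above 0 in endothelial-like cells, with Igtp highest at 2.21, against 27 in fibroblast-like and 24 in macrophage-like or monocyte-like cells.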

How the data were processed

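Single-cell RNA sequencing (10x Genomics, 3′ end) gave 1 tumour and 1 normal library. Per the submitters' processing notes, Cell Ranger 3.1.0 and build mm10 were used; how multi-mapping reads and strand were handled is not given in the sources used here. The deposited values are raw UMI counts, not normalized. Barcodes with at least 500 genes, 1000 UMIs and at most 10% mitochondrial UMIs were kept. Scrublet's automatic threshold removed 2.19% of normal cells; it marked 0.0777% of tumour cells, so the 53 top scores (2.06%) were removed there. Both libraries were clustered together (scanpy 1.11.5, igraph 0.11.9): counts scaled to 10000, log values, 2000 variable genes, 30 components, 15 neighbours, Leiden resolution 0.5. A cluster was named from at least 3 markers found in at least 25% of its cells. A cluster of 1 tumour and 19 normal cells in which a second class had at least 90% of its markers detected stayed unnamed, a rule added after the clusters were seen. The 32 tumour cells that fell in the pericyte cluster are not described as a class.

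Counts were summed per class and library and given as CPM. For folds, 95% intervals treat both sums as Poisson counts and come from an exact binomial interval of their split (scipy 1.17.1), and shares have exact Clopper-Pearson intervals; both cover counting error only, since reads of 1 library are not replicate mice. A count of 0 has a floor of 3 counts. Medians were taken over genes that reached 20 CPM in one or both sums. A UMI is worth 0.0348 CPM in the tumour and 0.0705 CPM in the normal fibroblast-like sum. Levels were not divided by gene length, because each molecule is counted once at its 3′ end. Xist-positive and Y-positive cells were told apart by UMIs of Xist and of Ddx3y, Eif2s3y, Kdm5d and Uty. TMM factors came from edgeR 4.0.16. The procedure was checked on simulated counts.

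Genes were named by rule: all 32 members, the 2 highest and 2 lowest measured genes of each other list, genes called on those lists, and class markers. The members and lists were chosen with earlier results of these data known. The receptors set beside the endothelial values and the immediate early list were chosen after values had been seen. Alternatives were the scaling, the filters, doublets, resolution, the clustering genes, cell weights, thinning, marker-free cells, the Xist and Y split, and leaving out each tumour cluster. Some measured genes are not reported here.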

Additional observations from a re-analysis of the deposited data

How the results depend on the processing

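No paired analysis was possible because each group has 1 library. The members' median log2 fold in fibroblast-like cells stayed below 0 under all alternatives with a value. It lay between -0.87 (without the tumour Ptx3 cluster) and -0.24 (cells with no macrophage or endothelial marker UMI). The median of all genes was itself below 0 as reported (-0.25). In the marker-free cells the members' median was close to that of all genes in the same cells, as given above. TMM scaling gave a median of 0.11 over all genes (-0.25 as reported) and of -0.30 over the members. For the counts of calls that follow, the share of all genes called under each alternative is not given here, so they have no background beside them. The number of members called higher, 0 as reported, was 2 with TMM scaling, every cell weighted the same, marker-free cells or a fold threshold of 1.5. It was 1 with the median gene at no change, a resolution of 1, clustering without the interferon genes (also at a resolution of 1, an alternative chosen after seeing the data), thinning to 5000 UMIs, no tumour Cthrc1 cluster or no minimum CPM. The number called lower, 1 as reported, was 0 with TMM scaling, the median gene at no change, equal cell weights, thinning, marker-free cells, Y-positive normal cells or no Cthrc1 cluster, 2 with Pdpn cells or Xist-positive normal cells and 4 with no minimum CPM. Of single members, Oasl2, Bst2 and Usp18 changed sign most often (7, 6 and 5 of 19 settings). The share of cells with a high antiviral sum was 7.15% in tumour and 7.85% in normal cells at 5 UMIs, and 0.807% in tumour and 0.748% in normal cells at 20 UMIs. The share of members with a promoter motif was 34.5% with longer motifs. Most members lie under 50 CPM in fibroblast-like cells, where the rule can make no call. The calls in the tumour G0s2 cluster, the B-like cells and the tumour monocytes rest on few UMIs.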

Other observations

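The small classes of the tumour library had class I levels of their own. The 42 ductal-like or tumour epithelial-like cells had H2-K1 at 150 CPM, H2-D1 at 188 CPM and B2m at 335 CPM, below the 494, 476 and 1023 CPM of the tumour fibroblast-like cells. Psmb9 and Tap1 were at 13.3 and 4.76 CPM there, and Ifit1, Ifit3, Ifi44, Rsad2 and Usp18 had no UMI, under a floor of 2.85 CPM. Their median depth was 21451 UMIs.

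The 23 T-like or NK-like cells had H2-K1 at 2445 CPM, H2-D1 at 1808 CPM and B2m at 2607 CPM. The 72 lymphatic endothelial-like cells had Ifitm3 at 3209 CPM, Bst2 at 432 CPM and Ifi44 at 76.0 CPM, while Rsad2 and Oasl2 had no UMI, under a floor of 4.47 CPM. In the normal blood endothelial-like cells Ifi44 and Rsad2 were at 148 and 236 CPM. That comparison lies across libraries, with different digestions and gates.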
